A study of Mus musculus with 6 samples.

Results

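Phospholipid remodelling was followed through 10 genes in neuro2a (N2a) cells, a mouse neuroblastoma line, after knockdown of the transcription factor NF-Y. The genes were 4 phospholipases A2 (Pla2g3, Pla2g4a, Pla2g6 and Pla2g12a) and 6 lysophospholipid acyltransferases (Mboat1, Mboat2, Mboat7, Lpcat1, Lpcat3 and Lpcat4), out of 20145 genes with a matched probe. They were chosen by function, with earlier results of these data known. The exception was Pla2g3, picked from its large fall on these same arrays, so its values are given as a description with no test. That Mboat1 fell was also known from earlier results of these data, so its adjusted p adds no support to the fall. All 10 genes had a probe whose accession matched, 7 passed the filter on dim signal, and Pla2g4a, Mboat2 and Lpcat4 did not.

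The 3 knockdown samples came from N2a cells transfected with miR RNAi vectors that target NF-YA and NF-YC together. The 3 control samples came from N2a cells given a control vector, titled "Vector" and read here as the empty vector. The methods also name a non-targeting miR vector (NT2) as a control, and the titles do not mention it. Per the methods, the vectors also carried EmGFP, transfection was by lipofection and cells were kept for a further 2 days. Every array thus held RNA of a transfected culture of 1 line, and the sources do not say whether the 3 samples of a group were separate cultures, so p-values measure only the spread between these samples, which may be technical. Each sample was read on 1 single-colour Agilent array, with 61.9% to 66.2% of spots well above background.

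Phospholipids are made with one set of fatty acids and then edited. Phospholipases A2 release the fatty acid, often arachidonate, from the middle carbon of the glycerol backbone, and lysophospholipid acyltransferases put another one back on the lysophospholipid that is left, a deacylation and reacylation circuit known as the Lands cycle. The circuit sets how unsaturated membranes are, and in neural tissue it also supplies arachidonate for eicosanoids. NF-Y, a trimer of NF-YA, NF-YB and NF-YC, binds the CCAAT motif in promoters.

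The knockdown was seen on the arrays. Nfya fell by 0.76 on the log2 scale (SE 0.05, n = 3 per group, limma adjusted p = 0.00128) and Nfyc fell by 1.81 (SE 0.04, adjusted p = 0.000323), with every knockdown array below every control array for both. RNA was taken from whole cultures, so less RNA per cell and fewer cells that express a gene cannot be told apart. Of 9 neuronal and sympathetic markers, 8 were well above background on all 6 arrays and Nefl was on none. All 4 macrophage and 2 of 3 astrocyte markers also passed that flag on all arrays. The summed level of the neuronal list, relative to the 75th percentile of the array, was 193.0 to 199.7 in control and 188.5 to 192.9 in knockdown samples. It was 2.26 to 3.24 against 2.13 to 2.62 for macrophages and 0.183 to 0.207 against 0.151 to 0.168 for astrocytes, and the part of these markers in the results was not tested. A gene was called where the adjusted p was under 0.05 and the fold change over 1.5. Over 16490 genes tested, 824 (5%) were called lower and 644 (3.91%) higher, the split being 1175 to 382 with arrays scaled on the median and 695 to 312 on spike-ins. Scaling on the median shifted the median change of all genes from 0.0053 to -0.11, so under it changes are read relative to -0.11. All 3 control samples and knockdown replicate 1 lay in 1 row of the slide and the other knockdown samples in another, so the fitted changes of the remodelling genes and of the called genes of the wider lists are also given with the row as a block. That value equals the difference within the first row, where knockdown replicate 1 is the lone knockdown sample.

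CCAAT is the motif bound by the factor that was knocked down. Promoter windows are shown for the acyltransferase genes that fell (Lpcat3 and Mboat1). Windows are also shown for the phospholipase genes with CCAAT that were not called (Pla2g6 and Pla2g12a). They are RefSeq sequences of build GRCm38.p6, from 250 bases before to 50 bases after the transcript start, read 5′ to 3′ on the strand of the gene. Capitals mark CCAAT or its reverse complement ATTGG and, in Pla2g12a, the reverse complement of the sterol element TCACNCCAC, the motif of SREBP. Lpcat3 lies at chr6:124662854-124663153 (+), Mboat1 at chr13:30136240-30136539 (+), Pla2g6 at chr15:79328322-79328621 (-) and Pla2g12a at chr3:129880934-129881233 (+).
Lpcat3: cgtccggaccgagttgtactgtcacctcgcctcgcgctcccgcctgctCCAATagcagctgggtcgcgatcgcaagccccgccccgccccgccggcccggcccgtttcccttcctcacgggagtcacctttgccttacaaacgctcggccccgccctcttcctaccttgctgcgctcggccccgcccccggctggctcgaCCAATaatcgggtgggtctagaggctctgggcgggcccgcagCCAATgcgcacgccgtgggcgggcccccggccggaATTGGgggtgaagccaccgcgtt
Mboat1: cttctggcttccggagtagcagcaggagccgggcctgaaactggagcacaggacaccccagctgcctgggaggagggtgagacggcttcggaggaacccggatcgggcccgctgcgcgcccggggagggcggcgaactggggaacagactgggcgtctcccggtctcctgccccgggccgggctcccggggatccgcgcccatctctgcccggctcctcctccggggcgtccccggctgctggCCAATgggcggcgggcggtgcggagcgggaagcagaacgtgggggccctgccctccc
Pla2g6: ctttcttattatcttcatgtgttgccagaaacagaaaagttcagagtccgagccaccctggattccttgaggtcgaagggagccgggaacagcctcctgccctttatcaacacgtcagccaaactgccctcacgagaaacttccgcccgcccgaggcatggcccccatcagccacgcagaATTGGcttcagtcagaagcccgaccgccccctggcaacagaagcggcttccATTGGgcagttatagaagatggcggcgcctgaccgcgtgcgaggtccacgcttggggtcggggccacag
Pla2g12a: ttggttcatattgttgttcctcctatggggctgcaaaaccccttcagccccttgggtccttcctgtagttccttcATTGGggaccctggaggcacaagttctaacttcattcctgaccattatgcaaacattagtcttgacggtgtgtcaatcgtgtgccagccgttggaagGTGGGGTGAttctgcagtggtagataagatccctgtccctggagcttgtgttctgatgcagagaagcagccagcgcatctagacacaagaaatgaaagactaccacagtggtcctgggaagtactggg

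A promoter entry was found for 9 of the 10 genes, and none for Pla2g3. The Lpcat3 window held 4 CCAAT motifs, at 202, 50 and 8 bases before the start in the forward direction and, in reverse, at base 28 counted from the start (each position is that of the first base of the motif as printed). The Mboat1 window held 1, at 7 bases before the start. Pla2g6 held 2 on the other strand, at 70 and 19 bases before the start, and Pla2g12a held 1 on the other strand at 175 bases, with the sterol element at 78 bases. The windows of Mboat7, Lpcat1 and Lpcat4 and the upstream start of Pla2g4a held no match, while the downstream start of Pla2g4a held 1 and Mboat2 held 2. In all, 6 of the 9 genes had CCAAT in at least 1 window, and 6 of their 10 windows held it. Of all 32851 promoter windows in the table, 37.4% held CCAAT, 11.7% held it at least 2 times and 1.24% held the sterol element. Among the tested genes the motif was present both where the signal fell (Mboat1, Lpcat3) and where it was higher (Pla2g6), and these matches are letters in a window, not measured binding.

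**Figure D1:**
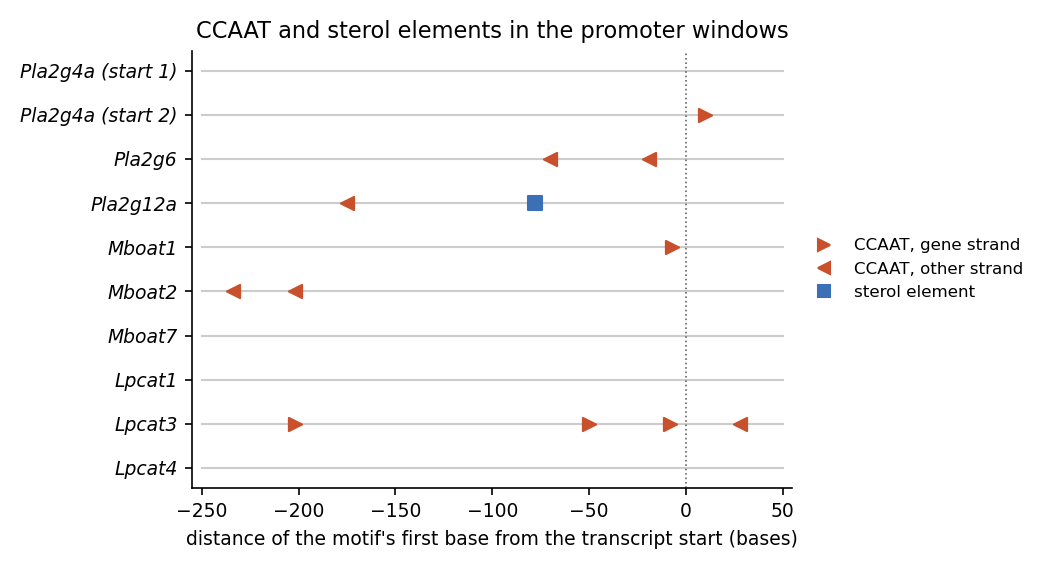
Positions of CCAAT (triangles pointing right on the strand of the gene, left on the other strand) and of the sterol element (square) in the promoter windows of 9 remodelling genes; the horizontal axis is the distance in bases from the transcript start, and Pla2g4a has 2 starts. Lpcat3 has 4 CCAAT motifs, 3 of them before the start, and Mboat7, Lpcat1 and Lpcat4 have none.

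Among the phospholipases, Pla2g3 showed the largest difference on the arrays. It encodes the group III secreted phospholipase A2, an enzyme related to the one in bee venom. Its brighter probe read -1.31, -1.39 and -1.39 in the control samples and -4.43, -4.18 and -4.53 in the knockdown samples, on a log2 scale where 0 is the 75th percentile of the array. All knockdown samples lay far below all control samples, at intensities of 31.6 to 39.7 against 281.9 to 304.6, and all 6 arrays were well above background. The difference was -3.02 (SE 0.10, 95% interval -3.28 to -2.76), which is 8.10-fold lower or 12.3% of the control level, and no gene tested had a lower change. As this fall chose the gene, it carries no test.

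The second Pla2g3 probe, for the same transcript, was dimmer. It read -3.84, -4.01 and -3.97 in control and -5.67, -6.55 and -6.44 in knockdown samples, a difference of -2.28 (SE 0.25). Only 1 of its 3 knockdown arrays was well above background, so this probe does not measure the full size of the fall. Averaging both probes gave -2.65, with the same limit. The size also moved with the background correction, to -1.78 after normexp, while the slide row as a block gave -3.07. The normexp setting added an offset of 50 to every intensity, and the brighter probe read 31.6 to 39.7 in knockdown samples. How much of the smaller difference comes from the offset was not tested.

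Pla2g6 encodes the calcium-independent phospholipase A2 beta, known for inherited neurodegeneration when it is lost. It was a little higher after knockdown. Control samples read 2.10, 2.09 and 2.05 and knockdown samples 2.42, 2.37 and 2.37, so the groups did not overlap. The difference was 0.31 (SE 0.04, limma adjusted p = 0.00774), or 1.24-fold, below the minimum fold for a call, and with the slide row as a block it was 0.34 with adjusted p = 0.0527.

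Pla2g12a, a secreted phospholipase A2 of another structural group, did not pass the test. It read 2.70, 2.67 and 2.68 in control and 2.58, 2.54 and 2.52 in knockdown samples. These groups did not overlap either, but the difference of -0.13 (SE 0.04, 95% interval -0.24 to -0.03) had an adjusted p of 0.0716 in limma. The slide row block gave -0.11.

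Pla2g4a encodes the cytosolic phospholipase A2 alpha, the enzyme best known for releasing arachidonate for eicosanoids. On none of the 6 arrays was its probe well above background, with intensities of 2.04 to 2.40 in control and 2.29 to 3.10 in knockdown samples. It was not tested, and no fold is given.

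**Figure D2:**
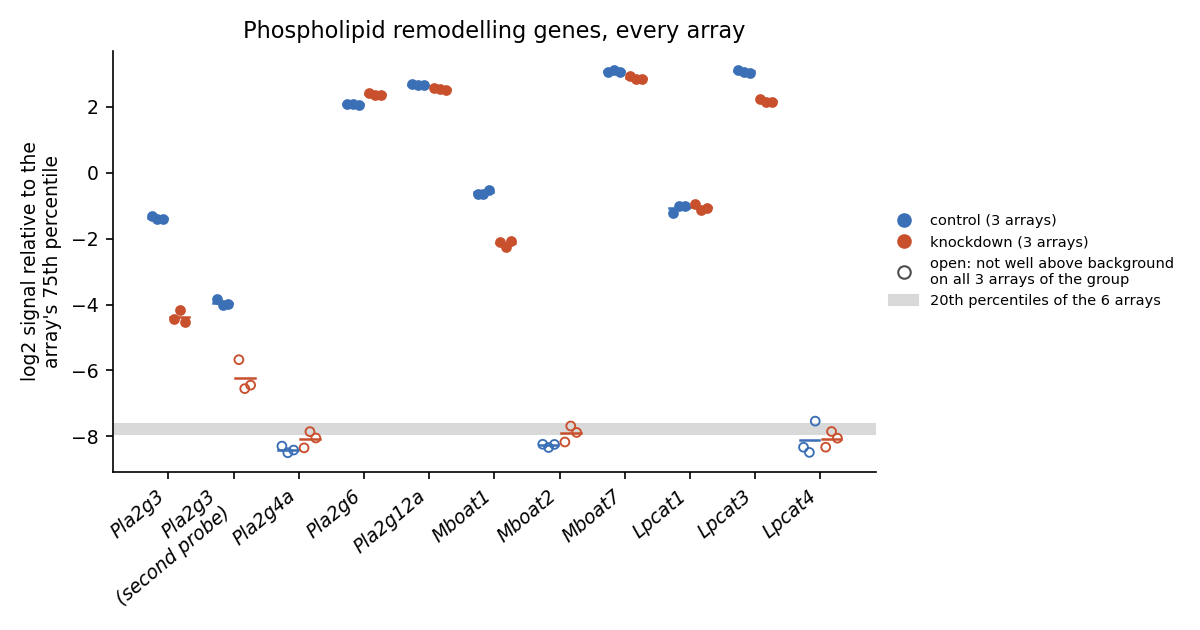
Log2 signal of each remodelling gene relative to the 75th percentile of its array (vertical axis), for 3 control and 3 knockdown samples, with short lines at group means; open points mark groups not well above background on all 3 arrays, and the grey band spans the 20th percentiles of the 6 arrays. Pla2g3, Mboat1 and Lpcat3 show knockdown points clearly below control points, and Pla2g4a, Mboat2 and Lpcat4 lie at the band; levels of different probes are not comparable with each other.

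Among the acyltransferases, 2 genes were down-regulated. Mboat1, which belongs to the membrane-bound O-acyltransferases and reacylates lysophosphatidylserine and lysophosphatidylethanolamine, read -0.64, -0.63 and -0.51 in control and -2.09, -2.24 and -2.08 in knockdown samples. The groups were far apart, at intensities of 476.8 to 528.8 against 151.8 to 175.3. It fell by 1.54 (SE 0.07, 95% interval -1.72 to -1.37, limma adjusted p = 0.000457), which is 2.92-fold lower. With the slide row as a block the change was -1.498 (adjusted p = 0.0128).

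Lpcat3 encodes the main enzyme that adds polyunsaturated fatty acids, arachidonate among them, to lysophosphatidylcholine. Control samples read 3.13, 3.06 and 3.04 and knockdown samples 2.23, 2.14 and 2.16. All knockdown samples lay below all control samples, at intensities of 3169 to 3513 against 6171 to 6584. It fell by 0.90 (SE 0.05, 95% interval -1.02 to -0.77, limma adjusted p = 0.000664), or 1.87-fold. The slide row block gave -0.84 (adjusted p = 0.0151).

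Mboat7, the enzyme that adds arachidonate to lysophosphatidylinositol, differed little between the groups. It read 3.06, 3.12 and 3.07 in control and 2.94, 2.85 and 2.84 in knockdown samples, without overlap. The difference was -0.20 (SE 0.05, limma adjusted p = 0.0373), or 1.15-fold lower, which is under the minimum fold for a call. With the slide row as a block the adjusted p was 0.244.

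Lpcat1 encodes an acyltransferase known for making dipalmitoylphosphatidylcholine, the lipid of lung surfactant. Its groups overlapped, with -1.22, -0.998 and -1.02 in control and -0.96, -1.13 and -1.06 in knockdown samples. The difference was 0.03 (SE 0.08, 95% interval -0.18 to 0.25, limma adjusted p = 0.816). The interval spans 0 and the sign turned without control replicate 1 (-0.04) or knockdown replicate 1 (-0.01), so no direction is given. With the slide row as a block it was 0.12 (adjusted p = 0.582). A further probe, named in the files only by transcript ENSMUST00000022099, is annotated as Lpcat1 by the study, but the gene table used here does not resolve that name. The probe was noticed in the study's list of changed genes, so its values carry no test: -1.42, -1.28 and -1.26 in control and -2.04, -2.49 and -2.33 in knockdown samples, a difference of -0.97 (SE 0.13). If it does measure Lpcat1, the 2 probes disagree.

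Mboat2, which acts on lysophosphatidylethanolamine and lysophosphatidylcholine, and Lpcat4, which acts on the same lipids, did not reach the well above background flag on any array. Their intensities were 2.28 to 3.49 and 2.06 to 4.05 over the 6 arrays, and neither was tested.

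Of the 6 tested genes other than Pla2g3, 2 (Mboat1 and Lpcat3) were called lower and 0 higher, beside 5% and 3.91% of all genes tested. At an unadjusted limma p under 0.05 with no minimum fold, 4 were lower and 1 (Pla2g6) higher, beside 22.9% and 23.2% of all genes tested, and an ordinary linear model with the fold also called 0 higher. All knockdown samples lay below all control samples in 4 of these 6 (Pla2g12a, Mboat1, Mboat7 and Lpcat3) and above them in 1 (Pla2g6), beside 27.1% and 27.7% of all genes. As the genes were gathered with earlier results known, nothing is read from these counts.

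**Figure D3:**
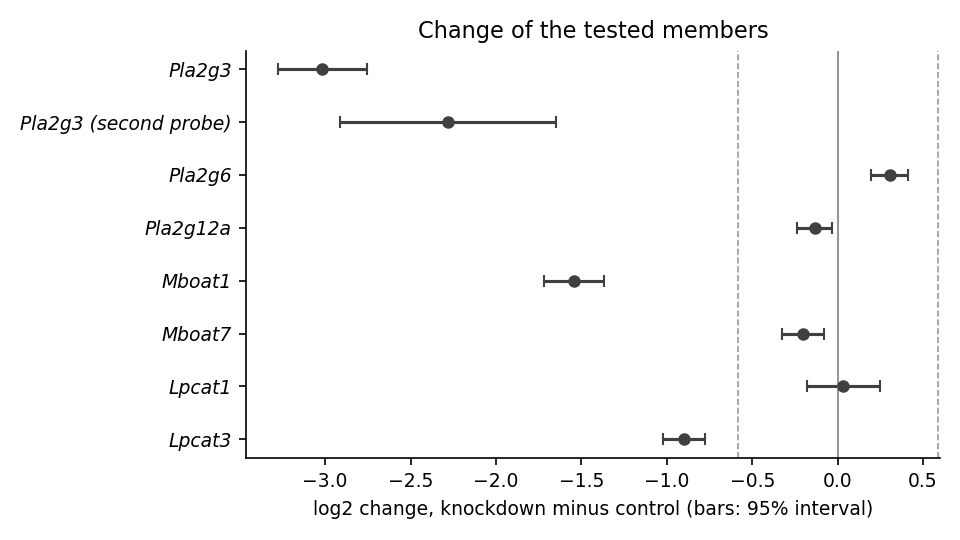
Log2 change (knockdown minus control, horizontal axis) of each tested remodelling gene and of the second Pla2g3 probe, with 95% intervals from the limma fit on 3 samples per group; dashed lines mark the 1.5-fold minimum. Mboat1 (-1.54) and Lpcat3 (-0.90) lie beyond the lower line and Lpcat1 (0.03) spans 0; Pla2g3 was picked for its fall.

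Related acyltransferases were set against each other within each array. Mboat1 minus Mboat7 was -3.70, -3.75 and -3.58 in control and -5.03, -5.10 and -4.92 in knockdown samples, so Mboat1 fell by 1.34 more on the log2 scale. The groups did not overlap, and the two-sided exact permutation p was 0.1, the smallest that 3 against 3 samples allow. The fall of Mboat1 was known beforehand from these data, so the separation adds no support to it. Mboat1 with Mboat7 was the only pair of 4 planned that could be compared. Mboat1 with Mboat2, Lpcat1 with Lpcat4 and Pla2g4a with Pla2g6 each include a probe that was not well above background.

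The genes most like each of the 3 that fell were found by the root mean square difference over the 6 arrays, in log2 signal relative to the control mean. For Pla2g3 they were Scd1, the stearoyl-CoA desaturase (0.29), Lpin1, a phosphatidate phosphatase (0.32), and Kyat3, a kynurenine aminotransferase (0.33). For Mboat1 they were Hsp90b1, the chaperone of the endoplasmic reticulum also called Grp94 (0.03), Cd164 (0.04) and Ssr1, a subunit of the translocon-associated protein complex (0.04). For Lpcat3 they were Hmgcs1, the HMG-CoA synthase of the cholesterol pathway (0.01), Tm9sf3 (0.03) and Rab3gap2 (0.03). With 2 groups this measure mostly ranks genes by the size of their change. The nearest genes to Pla2g3 changed by -2.94, -2.82 and -2.58. Pla2g3 was picked for its fall and had the lowest change of all genes tested, so nothing is read from its larger distances.

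In the wider circuit, 99 further genes were listed, 96 had a probe and 80 were tested. Of these, 6 (7.5%) were called lower and 1 (1.25%) higher, beside 5% and 3.91% of all genes tested. The median change was -0.03, beside 0.0053 over all genes. The other phospholipases A2 (13 tested of 18) had 0 called lower and 1 higher and a median of 0.17. At an unadjusted limma p under 0.05 with no minimum fold, 1 of them (Pla2g2e, -0.21) was lower and 4 were higher, and these unadjusted counts, here and for the lists that follow, stand beside 22.9% and 23.2% of all genes tested. The called gene, Pla2g4d, a cytosolic phospholipase A2 (limma adjusted p = 0.0341), was well above background on 0 control and 2 knockdown arrays. The size of its rise is therefore not measured. After normexp Pla2g4d changed by 0.14. Pla2g4d was not called in 11 of 22 alternative settings, among them the filter on signal well above background, which left it untested. With the slide row as a block its change was 1.18. Of the genes called lower in the lists that follow, Acsl4 was not called in 4 of the 22, Mfsd2a in 3 and Pnpla7 in 2. Gdpd1 and Gnpat were not called in 1 each, and Ddhd1 was called in all. Among the other phospholipases A2, Pla2g4c changed least (0.0003).

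Lysophospholipases and other phospholipid hydrolases (28 tested of 33) had 3 called lower and 0 higher (8 and 2 at an unadjusted limma p under 0.05), with a median of -0.02. Ddhd1, a phospholipase A1 that prefers phosphatidic acid, fell by 1.08 (SE 0.07, limma adjusted p = 0.0011). Gdpd1, a lysophospholipase D, fell by 0.88 (SE 0.04, adjusted p = 0.000547). Pnpla7, a lysophospholipase, fell by 0.62 (SE 0.06, adjusted p = 0.00285). Each had all knockdown samples below all control samples, as did 27.1% of all genes tested. With the slide row as a block the changes were -1.02 for Ddhd1 (adjusted p = 0.022), -0.91 for Gdpd1 (adjusted p = 0.0134) and -0.59 for Pnpla7 (adjusted p = 0.0414). Lypla2, an acyl-protein thioesterase, changed least (-0.01, adjusted p = 0.908).

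The other glycerolipid acyltransferases (13 tested of 15) had 1 called lower and 0 higher (2 and 4 at an unadjusted limma p under 0.05), with a median of -0.01. It was Gnpat, the peroxisomal enzyme that starts ether lipid synthesis, which read 4.82, 4.77 and 4.76 in control and 4.11, 4.08 and 4.15 in knockdown samples. It fell by 0.67 (SE 0.04, limma adjusted p = 0.00106), and the slide row block gave -0.67 (adjusted p = 0.0216). Agpat3, a lysophosphatidic acid acyltransferase, changed least (-0.01).

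Arachidonate activation and eicosanoid synthesis (17 tested of 21) had 1 called lower and 0 higher (7 and 4 at an unadjusted limma p under 0.05), with a median of -0.04. Acsl4, the acyl-CoA synthetase that favours arachidonate, read 3.63, 3.47 and 3.70 in control and 3.02, 2.92 and 2.96 in knockdown samples. It fell by 0.63 (SE 0.07, limma adjusted p = 0.00467), and with the slide row as a block the change was -0.58 with adjusted p = 0.0574, which ends the call. Ptges3, a co-chaperone also described as a prostaglandin E synthase, changed least (-0.03). Lysophospholipid signalling and transport (9 tested of 12) had 1 called lower and 0 higher (2 and 1 at an unadjusted limma p under 0.05), with a median of -0.31. Only 5 of these 9 were well above background on all arrays. The gene at the median was so on 0 control and 1 knockdown arrays, so this median is not read as a shift. Mfsd2a, the transporter of lysophosphatidylcholine that carries docosahexaenoate into the brain, fell by 0.85 (SE 0.10, adjusted p = 0.00474). With the slide row as a block it was -0.78 with adjusted p = 0.0582, which ends the call. Lpar2, a receptor of lysophosphatidic acid, changed least (-0.09).

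**Figure D4:**
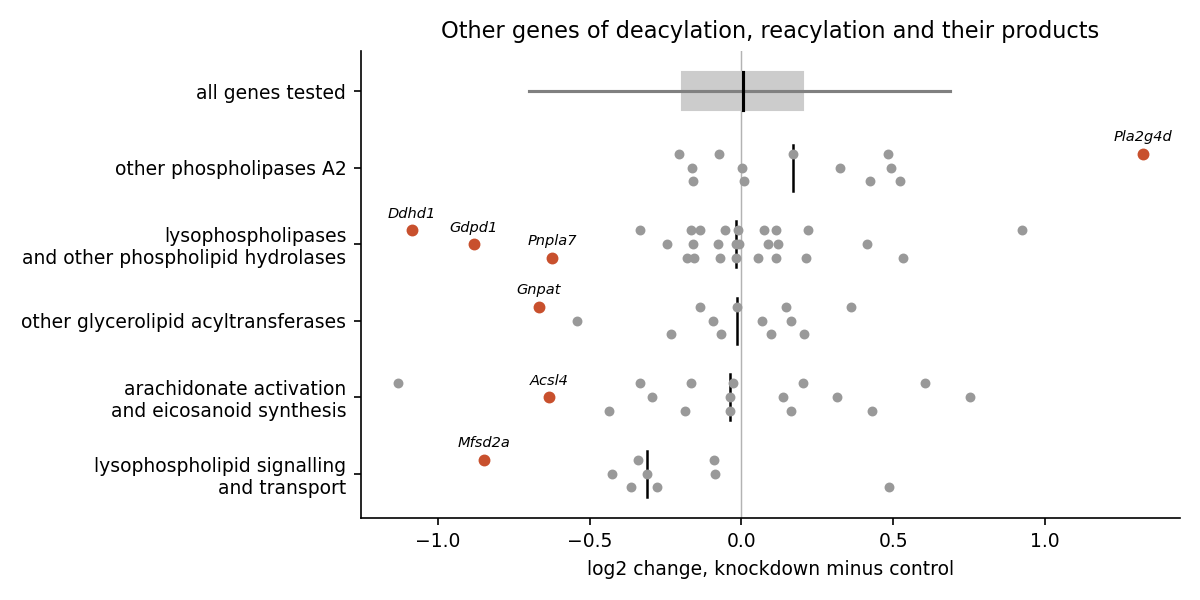
Log2 change (knockdown minus control, horizontal axis) of the 80 tested genes of 5 further lists, 1 point per gene, with called genes coloured and named and a black line at each list's median; the top row gives all 16490 genes tested, with the box from the lower to the upper quartile and the line from the 5th to the 95th percentile. The 6 genes called lower lie between -1.08 and -0.62, and Pla2g4d at 1.32 rests on control arrays that were not well above background.

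The processing and the fit were varied in 22 alternative settings, including each array left out in turn. Over these, Mboat1, Lpcat3, Mboat7 and Pla2g12a stayed negative and Pla2g6 stayed positive. Settings that change only the filter, the call rule, the variance trend, the moderation or the replicate block leave these estimates as reported. Those settings could not turn a sign. Pla2g3 was picked for its fall, so its sign is not read. Lpcat1 was below 0 in 4 of the 22, of which scaling on the median and on spike-ins shift all genes alike and leave it 0.0275 above the median of all genes, as in the reported fit.

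**Figure D5:**
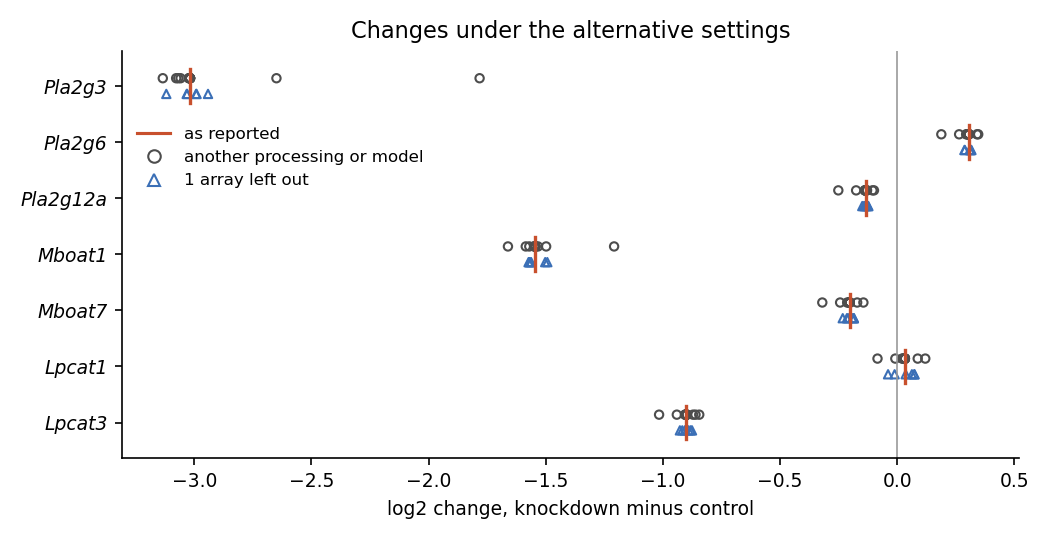
Log2 change (horizontal axis) of each tested remodelling gene as reported (line), under 16 other processing or model settings (circles) and with 1 array left out (triangles). Mboat1 stays between -1.66 and -1.21 and Lpcat3 between -1.02 and -0.84, Pla2g3 reaches -1.78 after normexp, and Lpcat1 lies on both sides of 0, partly through scalings that shift all genes.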

How the data were processed

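RNA of 6 samples was hybridised to single-colour Agilent SurePrint G3 arrays. The authors scanned them with Agilent Feature Extraction, whose processed signal, deposited for every spot, is a linear intensity with the background already removed. The deposited series matrix holds log2 values of unstated scale. Differences between its arrays matched those below to within 0.01 for 100% of 43916 probes, so it was read as the same values less a constant per probe. Per the methods, the authors used GeneSpring and removed genes under the 20th percentile.

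Here control spots and outlier spots were left out, the log2 signal was taken relative to the 75th percentile of non-control spots, and spots of a probe were averaged. Among 55681 probes, 245 had an array without a value, and 42126 reached the 20th percentile on all 3 arrays of at least 1 group. These were fitted with limma 3.58.1 (R 4.3.3; lmFit, eBayes; two-sided; Benjamini-Hochberg over all probes), and the fit was tested on simulated data. Array number, 3 per group, limits the precision. Symbols came from RefSeq accessions (GRCm38.p6), for 26582 probes. The brightest tested probe stood for a gene. The 4226 probes named by Ensembl transcript had no symbol. Groups came from sample titles.

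The genes and lists were chosen with earlier results of these data known. Named genes are the 10 remodelling genes, Nfya and Nfyc, each called gene and the least changed gene of the further lists, and the 3 nearest genes by array pattern. Pla2g2e and the probe named by its Ensembl transcript were named after their values were seen. Alternatives covered scaling, background, filter, probe choice, call rule, variance model, blocks and left-out arrays. The normexp alternative used median signals in place of mean signals, which the tables used here do not list. The result of 1 marker list is not reported here, so the lists given do not show that markers of other cell types held still.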

Additional observations from a re-analysis of the deposited data

How the results depend on the processing

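Under 22 alternative settings Mboat1 was called lower in 22 (-1.66 to -1.21) and Lpcat3 in 21 (-1.02 to -0.84), the exception being a minimum fold of 2, where Lpcat3 (-0.90) was not called and the count of called genes other than Pla2g3 dropped to 1. Pla2g3, which was picked for its fall, read -1.78 after normexp with quantile normalization and -2.65 over both probes. The normexp setting added an offset of 50 to every intensity, and the part of the offset in that value was not tested. Lpcat1 ranged from -0.0388 to 0.0741 with 1 array left out, below 0 without control replicate 1 and without knockdown replicate 1 (-0.0108). It read -0.0839 with arrays scaled on the median and -0.0079 on spike-ins, which shift the median of all genes to -0.111 and -0.0354, so that it stayed 0.0275 above that median as in the reported fit. Without a minimum fold Pla2g6 (0.31) and Mboat7 (-0.20) passed, giving 1 remodelling gene higher, and in the wider lists 14 genes were lower and 7 higher; a minimum fold of 2 left 1 lower. The count of wider genes higher was 0 on spike-ins, after normexp, with no filter, with a filter on signal well above background and without moderation across probes, 2 with the slide row as a block, and 0 to 2 with 1 array left out (0 without control replicate 1, 2 or 3, and 2 without knockdown replicate 1 or 3). Mboat1 minus Mboat7 was -1.005 after normexp. Counting CCAAT only before the start gave 5 genes in place of 6. Over all genes, normexp called 549 lower and 287 higher, no minimum fold 2602 and 2597, and a fold of 2 286 and 181.

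The sources do not say whether samples with the same replicate number were handled together. Their deviations correlated at 0.0178, 0.0666 and 0.00246, and not every sample correlated best with its own number. With 3 samples per group these values cannot show whether the samples were paired. With a replicate block 765 genes were called lower and 518 higher, the wider lists had 0 genes higher, and Mboat1 and Lpcat3 were called at adjusted p = 0.0222 each. Signal over background limits Pla2g4a, Mboat2 and Lpcat4, for which these arrays give no change, and 3 samples per group on 1 slide limit the rest.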
